A study of Mus musculus with 16 samples.

Results

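The genes for the proteins of the cytosolic ribosome were described in non-tumour colon of ApcMin/+ mice. Members were chosen by name: genes called Rps or Rpl followed by a number in the array's annotation, with Rplp0, Rplp1, Rplp2 and Rpsa added. A member also had to have a probe that the scanner software marked as well above background on at least 4 of the 16 arrays, and its brightest such probe stood for it. Of 84 names, 81 passed, among 24543 genes tested in the whole series. They comprise 34 proteins of the small subunit and 47 of the large one, and all 81 were well above background on 16 of 16 arrays. The 3 names just outside the rule were Rpl10l, Rpl39l and Rpl3l. Rpl10l passed on 1 array by its better probe, a 5-ASA array, and Rpl39l and Rpl3l passed on 0.

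Every mouse, untreated ones included, was heterozygous for the Min allele of the tumour suppressor Apc, which predisposes to intestinal tumours. The 4 Sham mice drank plain water. The 6 Control mice were given dextran sulphate sodium (DSS), a polymer toxic to the epithelium of the colon, at 1.5% (w/v) for 3 days, followed by saline. The 6 5-ASA mice had the same DSS course, then 5-aminosalicylic acid (5-ASA), a standard treatment of ulcerative colitis. On dosing the labels differ, with 28 days of intracolorectal 5-ASA or saline in one field and 25 days of 5-ASA or drinking water after DSS in another. Colon RNA (0.2 ug labelled) from day 28 was measured on 1-colour Agilent arrays, 1 per mouse, so that p-values measure the spread between mice.

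The cytosolic ribosome is built from ribosomal RNA and a fixed set of proteins, most of them needed in 1 copy per particle, and it makes all proteins encoded in the nucleus. Messengers of these proteins begin with a run of pyrimidines, the TOP tract, through which their translation follows the growth signalling of mTORC1. In the colon, rapidly renewing crypt cells are known for a high output of ribosomes. A few ribosomal proteins have a paralog, a second gene for a related protein, that can take the place of the parent protein or acts in ribosome assembly.

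Part of these genes have a run of pyrimidines at or next to their annotated start. RefSeq promoter sequences (build GRCm38.p6) matched 59 of the 81 members, with 70 annotated starts. A run of at least 6 C or T letters on the gene's own strand, touching the 5 bases before or the 5 after the start, was present at 45.7% of the members' starts, against 20.2% of 32851 starts of all genes, and 31 of the 59 matched members had it at 1 or more starts. The stretches below run from 15 bases before the start to 15 after it, with that run in capitals. They cover 3 members with the run across the start (Rps27, Rps6, Rpl38). They also cover Rpl22 and 3 paralogs, around which the results on pairs of genes turn.

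Rps27 (chr3:90213634-90213663, minus strand): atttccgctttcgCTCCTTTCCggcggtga
Rps6 (chr4:86857353-86857382, minus strand): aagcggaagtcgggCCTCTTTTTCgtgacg
Rpl38 (chr11:114668565-114668594, plus strand): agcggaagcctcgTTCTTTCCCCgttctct
Rpl22 (chr4:152325711-152325740, plus strand): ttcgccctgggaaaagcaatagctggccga
Rps27l (chr9:66946071-66946100, plus strand): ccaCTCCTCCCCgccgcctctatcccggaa
Rpl22l1 (chr3:28805493-28805522, plus strand): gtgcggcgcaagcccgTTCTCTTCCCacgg
Rpl7l1 (chr17:46782642-46782671, minus strand): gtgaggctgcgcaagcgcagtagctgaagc

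In Rps27, Rps6 and Rpl38 the run spans the annotated start, in Rpl22l1 it lies just after it, and in Rps27l just before it. No such run was in the windows of Rpl22 and Rpl7l1. Such a run was at 8 of 16 starts among the other TOP transcripts and translation factors listed. Its share was 24.0% of 75 for mitochondrial ribosomal proteins and 8.8% of 34 for ribosome assembly factors. A run wholly before the annotated start, as in Rps27l, is no part of the messenger by that annotation. These shares are therefore not shares with a TOP tract. The first base was C at 31.4% of the members' starts and at 16.3% of the starts of all genes. The match is a description of annotated starts and not a measurement of these mice.

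Each probe is 60 bases long, and the first 30 bases of the probes of 4 paralog pairs and of Rps21 are given to show what the arrays measured, with the probe's placement in the array file (build mm9).

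Rpl22 probe (chr4:151706515-151706574): ggaggaagacgaggattaggacacattggt
Rpl22l1 probe (chr3:28706237-28706296): cagagtctgaggactaattggcctctgctt
Rps27 probe (chr9:114891509-114891568): gcccctgattgaagatgagtgggaaccttc
Rps27l probe (chr9:66795486-66797176): aaagccaggctcacagaaggctgttcattt
Rpl7 probe (chr1:16091382-16091438): gtcacccattgtatttttgtaatctggtca
Rpl7l1 probe (chr17:46912582-46912641): aattatcaagtatcttcagagaagattatt
Rps4x probe (chrX:99380274-99380333): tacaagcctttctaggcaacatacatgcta
Rps4y2 probe (chr6:148304043-148304102): ggggaaggggcgtttacgtttgtttatact
Rps21 probe (chr2:179993084-179993143): aacttttgagcagaagaaatcgggaatttg

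The longest run that the 2 probes of a pair share was 5 bases for Rpl22 with Rpl22l1 and for Rps27 with Rps27l, 6 for Rpl7 with Rpl7l1 and 7 for Rps4x with Rps4y2. Over all 3240 pairs of members it was at most 12. Ribosomal protein genes have many processed copies elsewhere in the genome, which a probe may not tell from the gene. The Rps27 probe is placed on chromosome 9 and the Rps29 probe on chromosome 2, while RefSeq has these genes on chromosomes 3 and 12. Rps4y2, the array's name, is Rps4l in RefSeq.

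Levels below are log2 intensity minus the array's 75th percentile, so that 0 is the 75th percentile of an array, and they are not compared between probes. Slide 1 held Sham 1 and 2, Control 1 to 3 and 5-ASA 1 to 3, and slide 2 the rest. All Sham arrays lay in the first row of their slide and all 5-ASA arrays in the second, with Control in both (4 arrays in row 1 and 2 in row 2), so that only the Control arrays separate row from group for 5-ASA against Sham. Between 59.8 and 65.2% of spots were well above background in row 1, and between 53.0 and 57.7% in row 2. All 11 colon epithelium markers were measured, and the median over them lay between -0.13 and 0.14 of its mean in every mouse. In tissue RNA, fewer cells of a type and less RNA per cell cannot be told apart.

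Ribosomal protein genes varied little between mice of a group, and most of what variation there was they shared. The SD within groups had a median of 0.10 over the 81 members and 0.25 over all genes tested, and 79 members lay under the all-gene median. Between them lay translation factors and other TOP transcripts at 0.12, and the 2454 genes of highest mean level and the mitochondrial ribosomal proteins at 0.15 each, without a test of these differences. The steadiest were Rps25, a small subunit protein that some viral RNAs need to recruit the ribosome, at 0.061, Rpl17 at 0.062 and Rps24 at 0.064. Rps25 was at 6.35, 6.37, 6.51 and 6.44 in the 4 Sham mice, from 6.38 to 6.45 in Control (median 6.43) and from 6.36 to 6.54 in 5-ASA (median 6.42). The most variable were Rps4y2 at 0.36, Rps21 at 0.31 and Rps2 at 0.20. Across the 16 arrays, deviations from the group means had a median r of 0.78 over pairs of members, and 94.97% of pairs were above 0. These pairs share their arrays and the scaling of each array, so the correlation is a description.

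**Figure D1:**
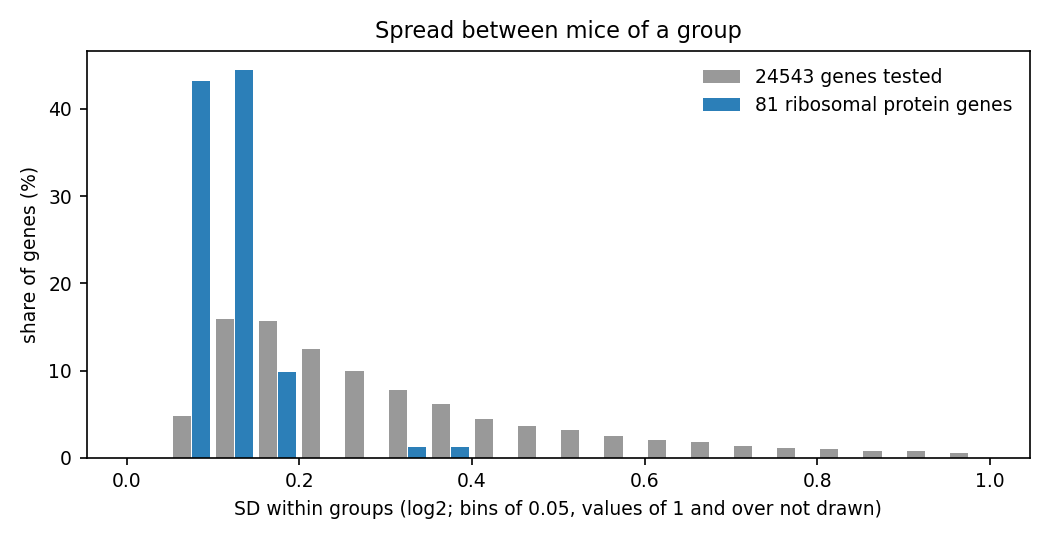
Share of genes (%) by the SD of their log2 level within groups, in bins of 0.05, for 24543 genes tested (grey) and 81 ribosomal protein genes (blue). Of the members, 43.2% lie from 0.05 to 0.10 and 44.4% from 0.10 to 0.15, with Rps21 and Rps4y2 apart above 0.30.

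Between the mice of each group the shared part ranged more widely than between the group means. These means were 0.022 ± 0.14 (SD, n = 4) in Sham, -0.034 ± 0.052 (SD, n = 6) in Control and 0.023 ± 0.086 (SD, n = 6) in 5-ASA. The median over the 81 members, each taken relative to its own mean over all arrays, was -0.14, -0.042, 0.19 and 0.073 in Sham 1 to 4. It ran from -0.11 to 0.030 in Control (median -0.028) and from -0.11 to 0.12 in 5-ASA (median 0.029). The Sham mice span the range of both other groups, with Sham 1 the lowest and Sham 3 the highest of all 16. Removing this shift from each array left a median SD within groups of 0.050.

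**Figure D2:**
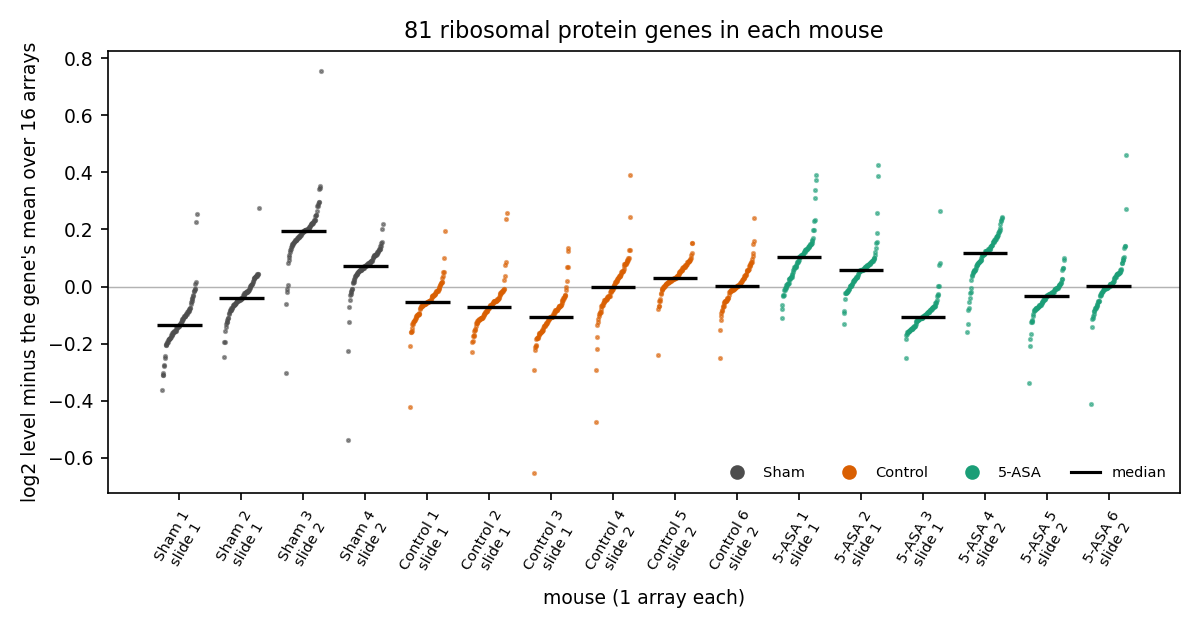
Level of each of the 81 ribosomal protein genes (dots, log2, minus the gene's mean over 16 arrays) in each mouse, with the median (bar) and the slide of its array. The members of a mouse lie close to their median, and the medians run from -0.14 in Sham 1 to 0.19 in Sham 3.

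Other genes read on the same arrays moved with the shift. Over 16 arrays its Pearson r was 0.85 with the median of the 2454 genes with the highest mean level, and 0.98 with that of 21 translation factors and other TOP transcripts, and within groups these were 0.90 and 0.99. The same percentile is subtracted from all genes of an array, so part of such a correlation is built in. The shift had an r of -0.76 with the subtracted percentile (-0.76 within groups) and 0.39 with the unscaled member median (0.42 within groups). Before the 75th percentile was subtracted, the member median had an SD over arrays of 0.061, and after it of 0.091. Markers of other cells followed the shift less closely than the gene lists above. Their r was 0.26 for 8 B cell markers (0.36 within groups) and -0.27 for 8 smooth muscle markers (-0.44 within groups). For 6 proliferation markers it was -0.086 (-0.040 within groups). The parts of these in the shift were not tested.

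In Control against Sham, colon after DSS and saline was compared with colon of mice on plain water, and no ribosomal protein gene was called. The parts of DSS and of saline cannot be told apart. limma's adjusted p reached 0.56 at its smallest among the 81, while 0.057% of all genes tested were called (14 genes, at an adjusted p under 0.05), and 1 member had an unadjusted p under 0.05 against 8.88% of all genes. The fitted difference was below 0 for 72 members and above 0 for 9, with a median of -0.058, against 0.0077 for all genes, of which 48.4% were below 0 and 51.6% above. In 0 members did the Sham and Control mice not overlap, against 2.71% of all genes with Control higher and 0.623% with Control lower. The median was -0.068 for the small subunit and -0.052 for the large one. It was 0.0045 within slide 1 and -0.12 within slide 2, -0.00086 without Sham 3 and -0.11 without Sham 1, so the value rests on which Sham mice enter.

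Among small subunit proteins, Rps27 had the smallest p. Its level was 7.78, 7.85, 8.04 and 7.95 in Sham and from 7.63 to 7.83 in Control (median 7.75), a difference of -0.16 (SE 0.077, adjusted p = 0.56 by limma, 95% interval -0.32 to 0.01). The groups overlapped, since Sham 1 lay below the highest Control mouse. Rps7, which also binds the p53 regulator Mdm2, was at 6.55, 6.59, 6.76 and 6.65 in Sham and from 6.39 to 6.58 in Control (median 6.52), a difference of -0.13 (SE 0.070). Rps6, the protein that S6 kinase phosphorylates when mTORC1 is active, was at 7.10, 7.23, 7.56 and 7.45 in Sham and from 7.15 to 7.43 in Control (median 7.26), with the Control mice inside the Sham range. Its difference was -0.055 (SE 0.097). Rps19, the gene most often mutated in Diamond-Blackfan anaemia, differed by -0.045 (SE 0.084), Rps27a, which is made as a fusion with ubiquitin, by -0.038 (SE 0.072), and Rpsa, also known as the laminin receptor, by -0.051 (SE 0.073).

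Among large subunit proteins, Rpl9 had the lowest difference. It was at 8.01, 8.18, 8.45 and 8.27 in Sham and from 7.97 to 8.19 in Control (median 8.07), a difference of -0.15 (SE 0.091, adjusted p = 0.62 by limma), and 2 of 4 Sham mice lay within the Control range. Rpl5 and Rpl11, which with 5S ribosomal RNA can bind Mdm2, differed by -0.071 (SE 0.070) and -0.067 (SE 0.089). The proteins of the stalk, which recruits translation factors to the ribosome, differed by -0.041 for Rplp0, -0.058 for Rplp1 and -0.029 for Rplp2, with SEs of 0.072, 0.071 and 0.076. Rpl3, close to the catalytic centre, differed by -0.020 (SE 0.084), and Rpl13a by -0.047 (SE 0.066).

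The 1 member with an unadjusted p under 0.05 was a paralog. Rpl7l1, a relative of Rpl7 that is known from precursors of the large subunit, was at -1.01, -0.91, -1.07 and -0.79 in Sham and from -0.90 to -0.37 in Control (median -0.73). The difference was 0.26 (SE 0.12, 1.20-fold), with an unadjusted p of 0.048 and an adjusted p of 0.56 by limma, while Sham 4 lay inside the Control range. Other paralogs above 0 were Rpl22l1 at 0.12 (SE 0.078) and Rps27l, which p53 induces, at 0.097 (SE 0.091). Of the 5 paralogs, 3 were above 0 and 2 below. Rps12l2 was below 0, with means of 8.007 in Sham and 7.958 in Control, and Rps12 had means of 8.055 and 8.001. This pair was not tested. Rps4y2 had the lowest difference of the 81, at -0.33 (SE 0.22), with Sham mice at 1.91, 1.66, 2.41 and 1.12 and Control from 1.00 to 1.89 (median 1.47), the widest spread of any member.

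The intervals bound how large a difference could be. For 74 of 81 members the 95% interval of Control minus Sham lay within 1.25-fold in either direction, and for 80 within 1.5-fold. The exception to the latter was Rps4y2, whose interval ran from -0.80 to 0.14.

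In 5-ASA against Control, which asks what 5-ASA adds after DSS, limma called 0 of 81 members and 0 of 24543 genes (0%). At an unadjusted p under 0.05 these were 0 members and 993 genes (4.05%). The fitted difference was above 0 for 78 members and below 0 for 3, with a median of 0.051, against -0.0013 for all genes, of which 49.6% were above 0 and 50.4% below. The groups overlapped in all members, and failed to in 0.0163% of all genes with 5-ASA higher and 0.122% with 5-ASA lower. Both this comparison and the one before use the 6 Control arrays. The median was 0.093 within slide 1 and 0.0097 within slide 2 (51 of 81 above 0), and it was 0.033 without 5-ASA 1, 0.033 without Control 3 and 0.034 without 5-ASA 4. With quantile scaling 65 of 81 members were above 0, with scaling on the array's median 72 and with normexp background correction 73. The count was 78 with the percentile taken over probes well above background on all arrays. With array row in the model it was 79 (median 0.0705).

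The array's 75th percentile, which is subtracted from every gene, also had unlike averages in these groups. Relative to its mean over 16 arrays, the percentile averaged 0.031 ± 0.087 (SD, n = 6) for Control. For 5-ASA it averaged -0.037 ± 0.069 (SD, n = 6). The median of the members before that percentile was subtracted averaged -0.0026 ± 0.066 (SD, n = 6) over Control mice, -0.014 ± 0.030 (SD, n = 6) over 5-ASA mice and 0.031 ± 0.090 (SD, n = 4) over Sham mice. Thus on the unscaled signal the members stood a little lower in 5-ASA than in Control, by less than the SD of either group. On the scaled signal they stood a little higher in 5-ASA, by less than its SD but not less than that of Control. The scaled means were 0.023 ± 0.086 (SD, n = 6) in 5-ASA and -0.034 ± 0.052 (SD, n = 6) in Control. The part of the scaling in the count of members higher in 5-ASA was not tested.

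The member with the smallest p was Rpl22, a large subunit protein that binds viral and cellular RNAs. It was at 6.64, 6.81, 6.99 and 6.93 in Sham, from 6.67 to 6.81 in Control (median 6.76) and from 6.74 to 7.003 in 5-ASA (median 6.89). The difference between 5-ASA and Control was 0.13 (SE 0.071, adjusted p = 1.00 by limma, 95% interval -0.023 to 0.28), and the groups overlapped between 6.74 and 6.81. Rpl38, known for selective translation of Hox messengers, was from 7.55 to 7.73 in Control (median 7.68) and from 7.67 to 7.88 in 5-ASA (median 7.80), a difference of 0.10 (SE 0.062). Rpl35a differed by 0.10 (SE 0.066), Rps3, which lines the messenger's entry channel, by 0.089 (SE 0.061), and Rps15 by 0.12 (SE 0.11).

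Rps4y2 had the highest difference of 5-ASA minus Control, at 0.34 (SE 0.20, 1.26-fold), with 5-ASA mice from 1.56 to 2.12 (median 1.69). At the low end were Rpl7l1 at -0.043 (SE 0.11) and Rps18 at -0.025 (SE 0.10), neither further from 0 than its SE. The stalk proteins differed by 0.041, 0.059 and 0.053 for Rplp0, Rplp1 and Rplp2, and Rpl10, which joins the large subunit late in assembly, by 0.078 (SE 0.068). The 95% interval lay within 1.25-fold for 78 of 81 members and within 1.5-fold for 80, the exception again Rps4y2 (-0.084 to 0.76).

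In 5-ASA against Sham, which uses the same 4 Sham arrays as the first comparison and the same 5-ASA arrays as the second, 0 of 81 members were called, against 0.057% of all genes (14 genes). The smallest adjusted p of a member was 0.51, and 0 members had an unadjusted p under 0.05, against 10.9% of all genes. The difference was above 0 for 37 members and below 0 for 44, with a median of -0.0056 against 0.0063 for all genes, of which 51.4% were above 0 and 48.6% below. The groups overlapped in all members, and failed to in 1.06% of all genes with 5-ASA higher and 0.758% with 5-ASA lower. Counts above 0 were 18 with scaling on the array's median, 15 with the percentile taken over probes well above background on all arrays, and 25 with normexp background correction. They were 45 with all probes of a gene averaged (median 0.0023) and 54 with array row in the model (median 0.015), both turning the median above 0, and 18 with array weights (median -0.032). Within slide 1, 75 of 81 members were above 0 (median 0.097), and within slide 2 only 5 were (median -0.11). The median ran from -0.059 without Sham 1 to 0.054 without Sham 3, and it also turned above 0 without Sham 4 (0.0067), 5-ASA 3 (0.017) or 5-ASA 5 (0.0068).

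The smallest p-values here belonged to paralogs. Rps27l was at 5.52, 5.48, 5.67 and 5.63 in Sham and from 5.55 to 6.02 in 5-ASA (median 5.75), a difference of 0.17 (SE 0.091, adjusted p = 0.51 by limma). Rpl7l1 differed by 0.22 (SE 0.12, adjusted p = 0.54 by limma) and Rpl22l1, at 5.74, 5.65, 5.78 and 5.82 in Sham and from 5.71 to 6.04 in 5-ASA (median 5.88), by 0.14 (SE 0.078, adjusted p = 0.55 by limma). In each the groups overlapped. At the low end, Rps18 was at -0.10 (SE 0.11), Rps27 at -0.10 (SE 0.077) and Rpl39, a small protein of the exit tunnel, at -0.090 (SE 0.083). Rps2, at 0.16 (SE 0.13), was the highest of the members that are not paralogs. All 81 intervals lay within 1.5-fold and 74 within 1.25-fold.

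The subtracted percentile cancels between 2 genes of 1 array. Each paralog but Rps12l2 was therefore also taken relative to its parent gene, per mouse, and centred on the mean over 16 arrays. The shared shift cancels only as far as both genes carry it. Within groups the r with this shift was 0.28 for Rpl22l1, 0.58 for Rps27l, 0.14 for Rpl7l1 and 0.25 for Rps4y2. For the parents Rpl22, Rps27, Rpl7 and Rps4x it was 0.94, 0.88, 0.86 and 0.92. Some of the parent's shift thus stays in the contrast, with its sign turned. This contrast was chosen after the values had been seen. Rps27l minus Rps27 was -0.12, -0.24, -0.24 and -0.19 in Sham and from -0.071 to 0.15 in Control (median 0.054), so that all Control mice lay above all Sham mice. The difference was 0.25, with p = 0.0048 by exact two-sided permutation, the smallest value that 4 against 6 mice allow, and 0.057 after Benjamini-Hochberg adjustment over 12 such tests. It was 0.21 within slide 1 and 0.29 within slide 2, and from 0.23 to 0.28 with any 1 mouse left out. All 4 Rps27 probes, placed on chromosome 9, had Control minus Sham differences between -0.16 and -0.12.

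In 5-ASA mice, Rps27l minus Rps27 ran from -0.28 to 0.34. It differed from Sham by 0.27 (exact permutation p = 0.043, adjusted 0.13), with 5-ASA 4 at -0.28, below every Sham mouse, and the groups overlapping. Rpl22l1 minus Rpl22 was 0.073, -0.18, -0.23 and -0.13 in Sham and from 0.022 to 0.23 in Control, a difference of 0.21 (exact permutation p = 0.019, adjusted 0.11), with Sham 1 inside the Control range. In 5-ASA it ran from -0.31 to 0.10 and differed from Control by -0.11 (exact permutation p = 0.080, adjusted 0.15), and by -0.057 without 5-ASA 4, the lowest mouse. Rpl7l1 minus Rpl7 was -0.15, -0.13, -0.47 and -0.084 in Sham and from -0.12 to 0.48 in Control, a difference of 0.33 (exact permutation p = 0.038, adjusted 0.13), at 0.15 within slide 1 and 0.51 within slide 2. Rps4y2 minus Rps4x differed by -0.26 between Control and Sham (exact permutation p = 0.35, adjusted 0.47), and by -0.10 without Sham 3 and -0.50 without Sham 4. None of the 12 tests passed after adjustment.

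**Figure D3:**
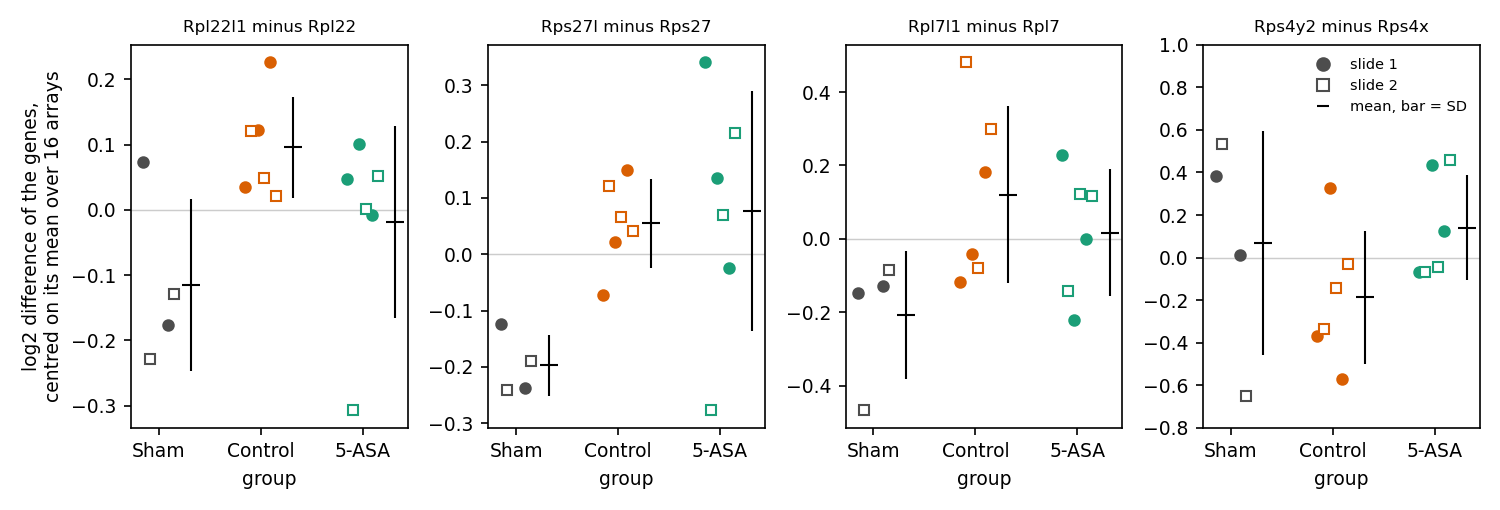
Log2 difference of a paralog and its parent gene in each mouse, centred on its mean over 16 arrays, by group, with filled circles for slide 1, open squares for slide 2 and the mean ± SD. In the Rps27l panel the 6 Control mice lie above the 4 Sham mice, and 5-ASA 4 is the lowest mouse there and in the Rpl22l1 panel.

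More genes were called between the slides than between any 2 groups, in the whole table as among the ribosomal protein genes. The slide comparison has more arrays on each side than a comparison of groups, so these counts differ in precision. With the 3 groups in the model, limma called 22 of 81 members (27.2%) between slide 2 and slide 1, against 20% of all genes tested (4903 of 24543), and 20 of the 22 were higher on slide 2. The median over the members was 0.092, against -0.011 for all genes. In 5 members the slides did not overlap, which is 6.17% of the members against 5.42% of all genes. This test was chosen after the values had been seen, and each slide holds the same number of mice of each group.

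Rps21, a small subunit protein, went the other way and by the most. It was at 6.02 and 6.07 in Sham 1 and 2 on slide 1 and at 5.77 and 5.57 in Sham 3 and 4 on slide 2. Over all groups it ran from 5.92 to 6.18 on slide 1 and from 5.32 to 5.77 on slide 2, a difference of -0.53 (SE 0.063, adjusted p = 4.8e-05 by limma). The mice therefore split by slide in every group, while the group means were 5.86 in Sham, 5.73 in Control and 5.81 in 5-ASA. Rps21 has a single probe. The other members whose slides did not overlap were higher on slide 2: Rps15 by 0.30 (SE 0.055), Rpl10a by 0.27 (SE 0.051), Rpl28 by 0.25 (SE 0.059) and Rpl15 by 0.24 (SE 0.045). Rpl7a was the second member called lower on slide 2, at -0.22 (SE 0.055). Rps2 and Rps18 differed by 0.30 and 0.25 with overlapping slides.

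**Figure D4:**
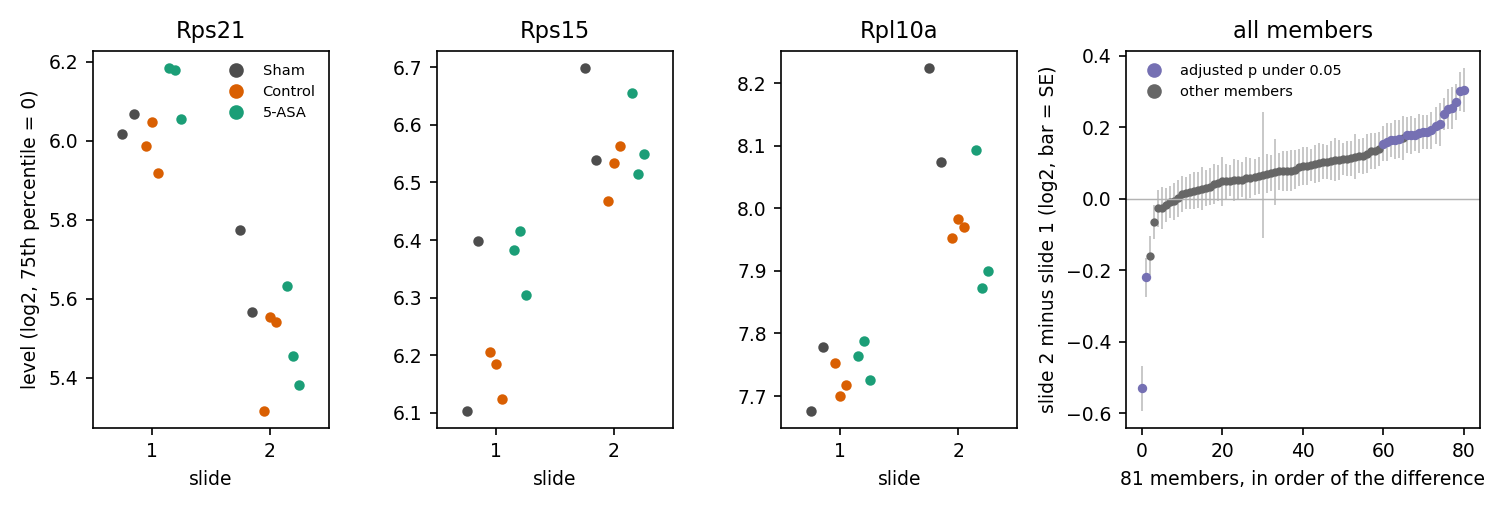
Levels (log2, array's 75th percentile = 0) of Rps21, Rps15 and Rpl10a by slide, 1 point per mouse coloured by group, and the difference of slide 2 minus slide 1 (± SE) for all 81 members in order, with the 22 at an adjusted p under 0.05 in purple. Rps21 is at 5.92 or above on slide 1 and at 5.77 or below on slide 2 in all groups.

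The genes whose pattern over 16 arrays (deviations from group means) was most like the 3 most variable members were found over the whole table. For Rps21 they were Gm8618 (Pearson r 0.99) and a pair of unnamed probes (0.99 and 0.98). For Rps2 they were 3 unnamed probes (0.98 to 0.99). For Rps4y2 they were an unnamed transcript (0.91), 2010320M18Rik (0.80) and Zfp953 (0.80). These points share their arrays and slides.

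Other probes of a member did not always follow the one used. The members have 189 probes, of which 186 were well above background on all arrays, and 19 members have 1 probe. The second probe of Rpl22 (chr4:151708012-151708071) differed by -0.32, -0.076 and -0.39 in Control minus Sham, 5-ASA minus Control and 5-ASA minus Sham, with an SD of 0.33, against -0.086, 0.13 and 0.042 for the probe used. Another Rps24 probe, designed to a different part of the transcript (chr14:25312695-25315015), differed by -0.29 for Control minus Sham where the probe used differed by -0.081. These probes are described without a test.

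Genes that build, supply or accompany the ribosome were described from lists. In Control minus Sham, 36 of 40 ribosome assembly factors were above 0, with a median of 0.24, and limma called 0 of them. At an unadjusted p under 0.05 there were 8, against 8.88% of all genes. Nolc1, a nucleolar chaperone, was at 0.56 (SE 0.21) and Fbl, the methyltransferase of box C/D particles, at 0.38 (SE 0.15), both with all Control mice above all Sham mice (2.71% of all genes), while Rrs1 was at 0.46 (SE 0.16) with overlap. In 5-ASA minus Control, 30 of 40 assembly factors were below 0 (median -0.11), with Wdr43 at -0.32 (SE 0.14) and Nop2 at -0.27 (SE 0.13), and the median was 0.0050 within slide 1 and -0.26 within slide 2. In 5-ASA minus Sham, 31 were above 0 (median 0.12), with Fbl at 0.49 (SE 0.15, adjusted p = 0.35 by limma) and Sbds, which releases the last assembly factor from the large subunit, at -0.26 (SE 0.099), and the median was -0.020 with array row in the model. All 6 proliferation markers were above 0 in Control minus Sham, with a median of 0.64. Of these, limma called 0, against 0.057% of all genes. In 2 of them all Control mice lay above all Sham mice (2.71% of all genes). Their median per mouse ran from -0.82 to -0.32 in Sham, from -0.21 to 0.52 in Control and from -0.58 to 0.97 in 5-ASA. Their part in the assembly factors was not tested.

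Mitochondrial ribosomal proteins, which serve the ribosome of the mitochondrion and are encoded in the nucleus, were above 0 for 71 of 78 genes in Control minus Sham (median 0.15) and 72 of 78 in 5-ASA minus Sham (median 0.17), with 0 called by limma against 0.057% of all genes in each. At an unadjusted p under 0.05 there were 16 and 26, against 8.88 and 10.9% of all genes, and in 19 and 7 all treated mice lay above all Sham mice, against 2.71 and 1.06% of all genes. In 5-ASA minus Sham, Mrpl22 was at 0.32 (SE 0.094) without overlap of the groups and Mrps11 at 0.37 (SE 0.11) with overlap, both at an adjusted p of 0.35 by limma. In 5-ASA minus Control 55 of 78 were above 0, with medians of 0.13 within slide 1 and -0.081 within slide 2. Of 14 genes for synthesis of ribosomal RNA by RNA polymerase I, 13 were measured, and 8, 3 and 7 of them were above 0 in Control minus Sham, 5-ASA minus Control and 5-ASA minus Sham. Rrn3, the factor that brings RNA polymerase I to its promoter, was at 0.21 (SE 0.10) in the first of these. Of 21 translation factors and other TOP transcripts, 6, 13 and 11 were above 0, with medians of -0.040, 0.034 and 0.0038, and Eef1g, a subunit of the elongation factor complex, was at 0.22 (SE 0.096) in 5-ASA minus Sham. Whether these lists differ from the ribosomal proteins was not tested.

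**Figure D5:**
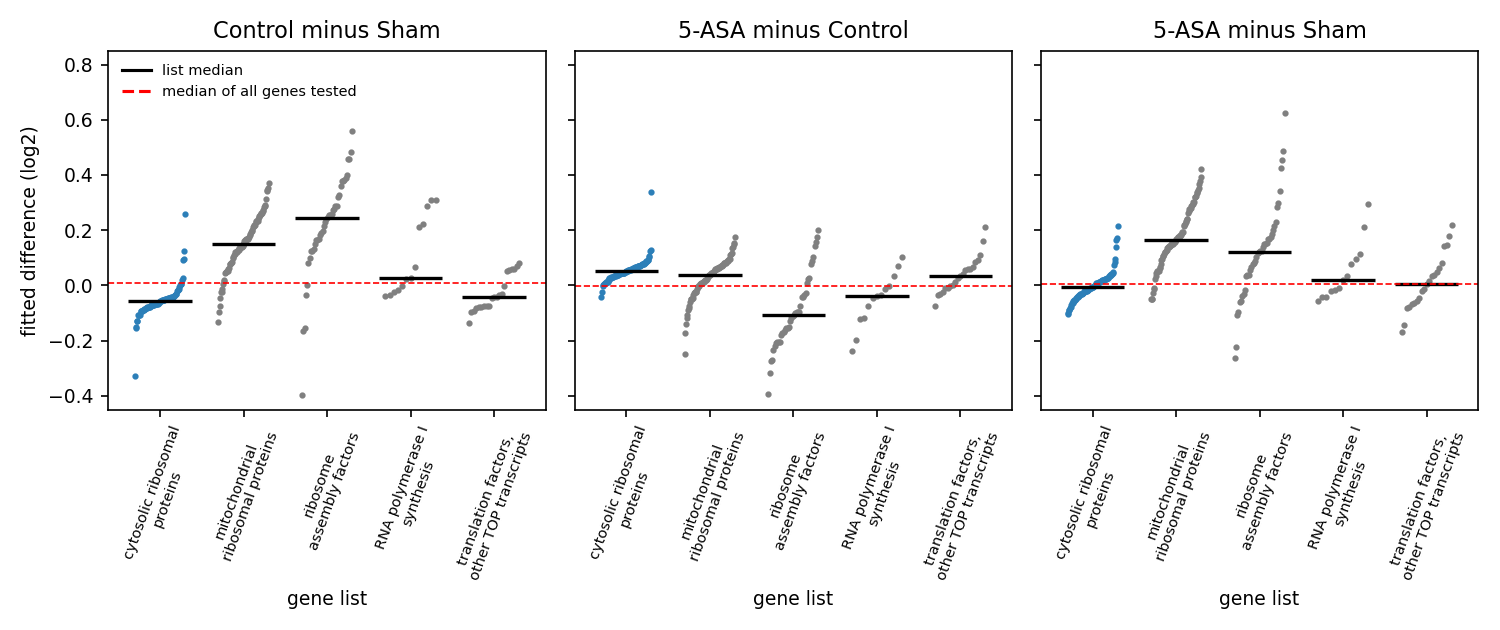
Fitted log2 difference of every gene (dot) of 5 lists in the 3 comparisons, with the list's median (bar) and the median of all genes tested (dashed line). Cytosolic ribosomal proteins lie within a narrow band around medians of -0.058, 0.051 and -0.0056, and assembly factors are spread more widely around 0.24, -0.11 and 0.12.

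Markers of other cells spanned wide ranges between mice. The 8 B cell markers were below 0 in all 3 comparisons, with medians of -1.12, -1.11 and -2.05, and their median per mouse ran from -1.84 to 2.71 in Sham, from -1.92 to 3.06 in Control and from -1.501 to -0.37 in 5-ASA. The 8 smooth muscle markers had medians of -0.34, 0.40 and 0.044, and ran from -0.36 to 0.90 per mouse in Sham, from -1.36 to 0.81 in Control and from -0.010 to 0.43 in 5-ASA. Their part in the values of single ribosomal proteins was not tested.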

How the data were processed

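Per the file headers, Feature Extraction 10.10.1.1 subtracted a detrended background from each spot to give the processed intensity used here, and marked outlying spots and those well above background. The authors' deposited value table names no scale. Set against the scanner files, its values followed log2 intensity centred on Sham, which is inferred and not stated by the authors (r from 0.992 to 0.998, column medians from -0.188 to 0.223). This r was taken over the probes of each array and does not change with an array's shift. It therefore cannot tell a shift by the 75th percentile from another.

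From the intensities, log2 minus each array's 75th percentile was taken over non-control probes, with outlying spots left out. Of 55681 probes, 35087 well above background on at least 4 arrays were kept, with the brightest per gene, named through RefSeq where an accession matched (27656). limma 3.58.1 in R 4.3.3 fitted the 3 groups in 1 model without covariates, with Benjamini-Hochberg adjustment over 24543 genes and calls under 0.05. The procedure was tested on simulated data. These were drawn independently for each gene and array, without slide, row or shared shift, so they cannot show how the procedure handles those.

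Members and gene lists were chosen with earlier results of these data known. Named are, per comparison, the 5 members with the smallest p and the 3 highest and 3 lowest, the paralogs with their parents, the stalk and 7 other proteins, the 3 most and 3 least variable members, those at the detection limit, and 2 or more genes per list by p. A few results that this rule names are not reported here. The further Rpl22 and Rps24 probes, and the members that differ by slide, were chosen after their values were seen. The paralog and slide tests, the member-centred fit and the fit without Sham 1 and Sham 3 were added after seeing the data. Other alternatives covered background, scaling, filters, probes, slide, row, replicate number, variance model, weights, the deposited table and each mouse left out.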

Additional observations from a re-analysis of the deposited data

Results flagged for a closer look

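Among 102 sets of 4 to 6 mice, 1 held a mouse far from the others. A set was a named ribosomal protein gene, or the median over the members, in 1 group. Rpl38 in Control 3 was at 7.548, while the other 5 Control mice lay between 7.679 and 7.734, a gap of 0.704 of the group's range. Chance alone sets apart about 1 in 20 such groups.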

How the results depend on the processing

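Over 36 alternatives, limma called 0 of 81 members in each comparison. The member median ran from -0.12 to 0.0045 for Control minus Sham (-0.11 to -0.00086 with 1 mouse left out), from -0.0058 to 0.093 for 5-ASA minus Control (0.033 to 0.075, and the lowest value from centring on the members' own median, which sets it near 0 by construction) and from -0.11 to 0.097 for 5-ASA minus Sham (-0.059 to 0.054). The value of 5-ASA minus Sham moved by more than the SD within groups in the fits within slide 1 (0.097) and within slide 2 (-0.11). The called genes of the whole table were 15 for Control minus Sham, 2937 for 5-ASA minus Control and 3271 for 5-ASA minus Sham without a filter on dim probes, and 0 in each without the outer spot rows. In Control minus Sham the main setting called 14 and most others from 10 to 16, but 1 where probes had to be well above background on all arrays, 4 and 1 within slides 1 and 2, and 7 from those groups alone. 5-ASA minus Control had 1 within slide 2 and 7 with array row in the model. 5-ASA minus Sham had 14 in the main setting, and 2, 2 and 4 under the first 3 of these settings, 8 with array row and 23 without 5-ASA 4.

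Of 86 reported differences of named members, 0 passed in any alternative, and 218 of 3096 values changed sign. Rps4y2 in Control minus Sham was 0.055 without Sham 1 and Sham 3. In 5-ASA minus Control, Rps18 was 0.015 with all probes averaged, 0.025 within slide 1, 0.0027 with array row in the model and 0.019 with array weights, and Rpl7l1 was 0.079 within slide 1 and 0.030 with array weights. With 1 mouse left out these ran from -0.059 to 0.0068 (without Control 5) and from -0.11 to 0.018 (without Control 4). In 5-ASA minus Sham within slide 1, Rpl39 was 0.0081 and Rps18 0.038. The causes were not tested.

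Same-numbered mice also shared a slide, except that Sham 3 was on slide 2 while Control 3 and 5-ASA 3 were on slide 1. The correlations of the deviations of same-numbered mice ran from -0.21 to 0.61, and not all were above 0.1. The lowest were -0.21 and -0.20, for Sham 3 with Control 3 and with 5-ASA 3. These values cannot tell a shared number from a shared slide. With the replicate number as a block, the medians were -0.061, 0.051 and -0.012, with 0 members and 10, 0 and 12 genes of the whole table called. The number of mice limits the precision.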
